A study of Homo sapiens with 11 samples.

Results

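The genes described here are the core of the AP-1 and immediate early program: the Fos family (FOS, FOSB, FOSL1 and FOSL2), the Jun family (JUN, JUNB and JUND), the zinc finger factor EGR1, the bZIP factor ATF3 and the nuclear regulator IER2. They were taken by symbol, 10 of the 60676 genes of the count table, and all 10 passed the filter on low counts. Their levels were measured by RNA-seq in RWPE1, an immortalized, non-tumorigenic line of human prostate epithelial cells, to ask how a shift from normoxia to hypoxia changes the transcriptome over time. There were 3 libraries of untreated cells in normoxia, 3 each of cells held at 1% oxygen for 6 h and for 12 h, and 2 of cells held there for 24 h. Every culture was in serum-free keratinocyte medium with 5 ng/ml EGF and 0.05 mg/ml bovine pituitary extract, so growth factor was present in the controls as well. The medium of the hypoxic cultures also contained 10 mM HEPES, a buffer not stated for normoxia. The effects of low oxygen and of the buffer cannot be told apart. The only normoxic group stands at 0 h, so hours in hypoxia and hours in culture cannot be told apart either. All groups are the same cell line, and nothing in the labels says whether replicates were separate cultures, so the p-values measure the spread between these libraries, which may be technical.

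AP-1 is a dimer of bZIP proteins that binds DNA through a basic region and pairs through a leucine zipper. Fos proteins mainly pair with a Jun protein, whereas Jun proteins can also pair with each other. FOS, FOSB and JUN activate transcription more strongly than FOSL1, FOSL2, JUNB and JUND in many settings. Immediate early genes are transcribed within minutes of a growth factor or stress signal, without new protein synthesis, largely through MAP kinases acting on serum response factor (SRF) with its ELK partners, and most of their mRNAs are short lived. In stratified epithelia and in prostate cells, AP-1 is known for its part in proliferation, wound closure and the control of matrix proteases.

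The libraries held 27496009 to 49488345 counts on genes, and 19981 genes were tested. CPM, the unit of the levels below, is a count scaled to a fixed library size after TMM scaling between libraries. TMM factors fell from 1.29 to 1.32 in normoxia to 0.851 and 0.539 at 24 h, and 24 h replicate 2 stood lowest. All 6 hypoxia control genes rose at every time, for example SLC2A3 (a glucose transporter) by 4.15 ± 0.21 (SE) on the log2 scale at 6 h. All 9 epithelial markers were detected in every library, with a summed level between 12432 and 15726 CPM in normoxia, and between 19812 and 25754 CPM after 6 h, 30698 and 34580 CPM after 12 h, and 30195 and 58133 CPM after 24 h. Among them the keratins KRT18, KRT8 and KRT17 rose at every time, and TP63, which encodes the basal cell factor p63, fell by 1.72 ± 0.16 (SE) at 6 h. The KRT17 call at 6 h (log2 0.91) was lost without any 1 of the normoxic libraries (0.85, 0.88 and 0.97) or 6 h replicate 2 (0.89) or 3 (0.91), and its 24 h value of 2.54 was 1.68 without 24 h replicate 2. Over the whole list, 5 markers were called higher and 1 lower at 6 h, 6 and 1 at 12 h, and 6 and 2 at 24 h. Of 11 markers of fibroblasts, endothelium and leukocytes, 3 passed the filter, and 1, 3 and 2 of these were called lower at the 3 times. Their summed level was 48.8 to 62.4 CPM in normoxia and 29.3 to 31.4 CPM at 24 h, nearly all of it from COL1A1, while its partner chain COL1A2 had 0 to 3 counts per library. The endothelial marker CDH5 and the fibroblast marker LUM were at 0 counts in every normoxic library. PTPRC, the leukocyte marker called lower at all 3 times, had 0.346 CPM or less in every library. Its 6 h call (log2 -2.45) was lost without 6 h replicate 1 (-2.04) or 2 (-2.415), and its 12 h call (-3.24) without 12 h replicate 2 (-2.80). The 24 h call (-5.88) was lost without either 24 h library (-5.94 and -5.95). In bulk RNA, fewer cells of a type and less RNA per cell cannot be told apart, and the part of these marker shifts in the results was not tested.

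The 10 genes went both ways under hypoxia, as did the genes tested as a whole. FOSL1 and JUN were higher at all 3 times, FOSL2 was higher at 6 and 12 h, and FOS was higher at 24 h. EGR1 and IER2 were lower at all 3 times, ATF3 was lower at 6 and 12 h, and JUNB was lower at 12 and 24 h. FOSB and JUND were called in none of the comparisons with normoxia, 2 of the 10 genes beside 21.5% of all genes tested. A gene was called where edgeR's quasi-likelihood p, adjusted by Benjamini and Hochberg over all genes tested, was under 0.05. At 6 h, 6 of the 10 genes were called (3 higher and 3 lower), beside 52.8% of all genes tested. At 12 h, 7 were called (3 higher and 4 lower), beside 51.2%. At 24 h, 6 were called (3 higher and 3 lower), beside 61.2%. The response to hypoxia was broad, and the number of these genes called was close to that background. All genes tested split in a like way: 25.1% were called higher and 27.7% lower at 6 h. These shares were 24.2% and 27.1% at 12 h, and 29.9% and 31.3% at 24 h. Hypoxic libraries lay wholly above or below the normoxic ones for 6 of the 10 genes at 6 h (69.6% of all genes tested), 9 at 12 h (72.3%) and 6 at 24 h (73%). The 3 comparisons share the normoxic libraries. Scaling by library size alone put the median gene at a log2 fold change of -0.32 at 6 h, -0.50 at 12 h and -0.97 at 24 h, and the split of the 10 genes then became 2 higher and 4 lower at 6 h and 3 higher and 6 lower at 24 h. That scaling also moved the calls over all genes, of which 27.6% at 6 h and 16.4% at 24 h were then in the higher direction, beside 47.6% and 48.8% with TMM. Changes below are relative to the TMM scaling.

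**Figure D1:**
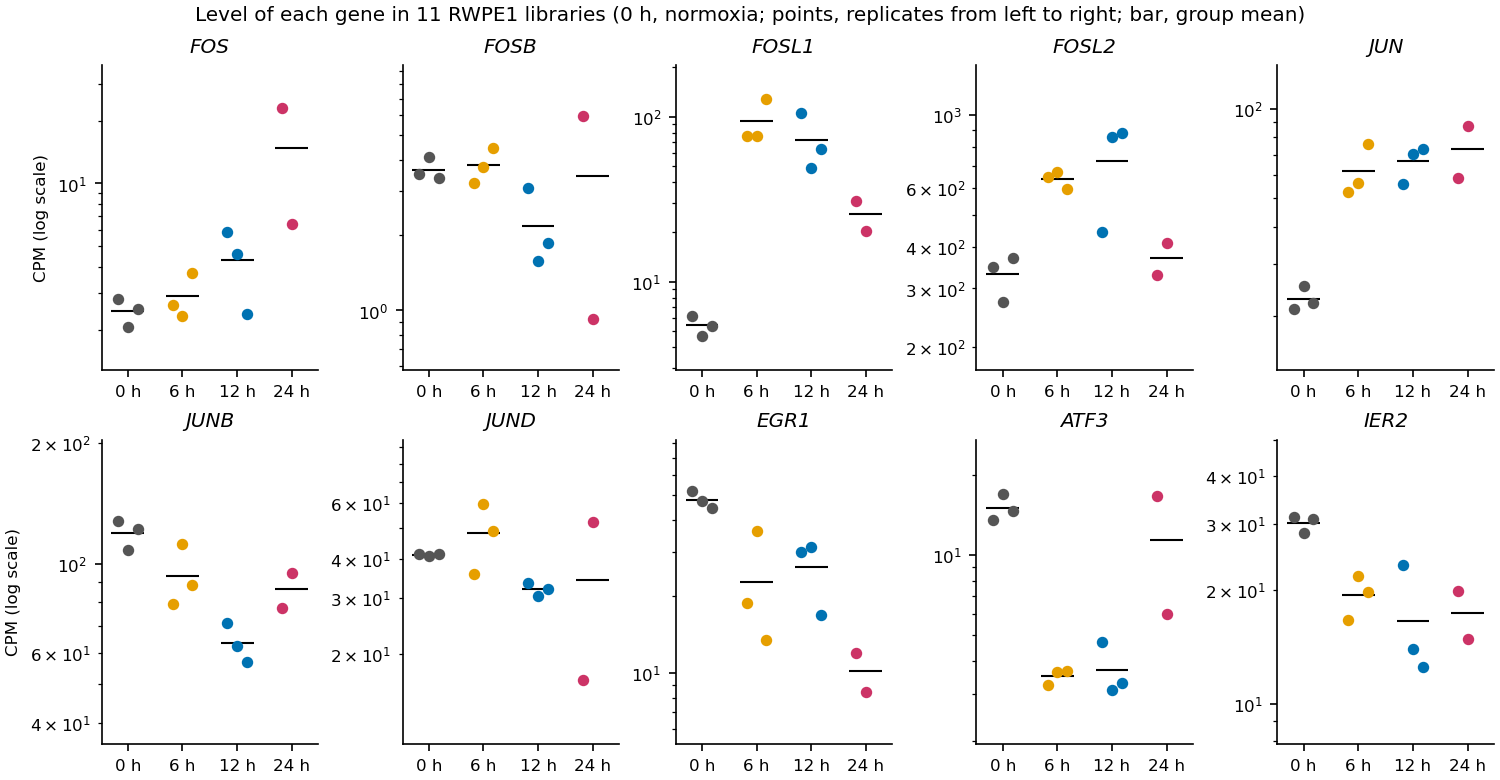
Level of each of the 10 genes in CPM (TMM-scaled, log axis) in the 11 libraries, by hours in hypoxia with 0 h for normoxia; points are libraries and bars are group means. FOSL1 and JUN lie above all normoxic libraries at every time, EGR1 and IER2 below them, and the 2 libraries at 24 h lie far apart for FOS, FOSB, JUND and ATF3.

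Per kilobase of exon, the unit in which levels of different genes were compared, JUNB was the most abundant in normoxia at 65.1 ± 5.41 CPM per kb (SD, n = 3), followed by FOSL2 at 46.2 ± 7.11 and JUND at 21.3 ± 0.24. EGR1 (15.3 ± 1.19), IER2 (9.81 ± 0.53), JUN (6.30 ± 0.60), ATF3 (3.76 ± 0.44) and FOSL1 (2.88 ± 0.41) came next in CPM per kb, and FOS (0.769 ± 0.118) and FOSB (0.656 ± 0.069) were lowest. Libraries of neighbours in this order did not overlap except for FOS and FOSB. At 6 h FOSL2 led at 89.3 ± 5.30 CPM per kb (SD, n = 3), and JUNB (50.9 ± 9.17) and FOSL1 (49.7 ± 15.7) followed with overlapping libraries. At 24 h FOSL2 (51.6 ± 8.01, SD, n = 2) and JUNB (47.2 ± 6.71) overlapped at the top. JUN (20.1 ± 5.66), JUND (17.8 ± 13.0) and FOSL1 (13.5 ± 4.04) overlapped as well.

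Promoters are shown for JUN, as a gene that was higher throughout, and for EGR1 and IER2, which were lower throughout, so that their sequence can be read beside their opposite course. Sequences are from RefSeq (GRCh38.p14), 240 bases from 250 to 11 bases before the annotated start, written 5′ to 3′ on the gene's strand, with capitals at any motif searched. JUN lies on the minus strand (chr1:58784058-58784297), and EGR1 (chr5:138465229-138465468) and IER2 (chr19:13150161-13150400) on the plus strand.
JUN: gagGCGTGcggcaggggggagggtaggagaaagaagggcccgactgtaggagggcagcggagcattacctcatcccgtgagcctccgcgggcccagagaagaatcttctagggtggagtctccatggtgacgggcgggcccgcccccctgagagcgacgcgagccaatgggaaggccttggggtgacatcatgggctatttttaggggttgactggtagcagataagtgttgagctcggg
EGR1: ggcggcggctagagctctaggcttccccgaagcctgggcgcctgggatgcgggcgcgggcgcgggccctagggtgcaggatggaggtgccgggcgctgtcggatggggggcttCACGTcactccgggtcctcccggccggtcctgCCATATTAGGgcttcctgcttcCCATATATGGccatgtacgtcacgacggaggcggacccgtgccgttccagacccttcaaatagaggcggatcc
IER2: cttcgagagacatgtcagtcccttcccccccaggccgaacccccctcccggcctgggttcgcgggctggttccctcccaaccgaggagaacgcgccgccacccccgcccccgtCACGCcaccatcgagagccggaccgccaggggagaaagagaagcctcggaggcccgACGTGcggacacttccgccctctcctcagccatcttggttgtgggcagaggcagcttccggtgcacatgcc
The 250 bases before the start were searched on both strands for the AP-1 site (TGACTCA), the cyclic AMP response element (TGACGTCA), the EGR1 site (GCGTGGGCG), the TATA box (TATAAA), the hypoxia response element cores ACGTG and GCGTG, and the CArG box that SRF binds. The EGR1 site contains GCGTG, so these overlap by construction. EGR1 held 2 CArG boxes, starting 105 and 83 bases before its start, a motif found in 1.16% of 35116 promoters, and 1 ACGTG core on the reverse strand (18.5% of promoters). IER2 held 1 ACGTG core and 1 GCGTG core (32.2% of promoters), and JUN held 1 GCGTG core. Among the genes not shown, FOSL2 held an ACGTG core, starting 64 bases before its start. FOS held a GCGTG core at 175 bases, and JUNB held this core at 154, 110 and 24 bases. Each core thus occurred both in genes called higher and in genes called lower. The TATA box (10.7% of promoters) was found in FOS, FOSB, JUNB and 1 promoter of ATF3. Of the 9 genes with an entry (all but FOSL1), JUND alone held the cyclic AMP response element (1.65% of promoters), and none held the AP-1 site (4.2%) or the EGR1 site (0.72%). Only the letters given were matched, so sites that differ from them by a base were not counted. The match of letters is a description of the window and not of binding.

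FOSL1 encodes FRA1, a Fos protein without a strong activation domain that is induced late after growth factor stimulation and is known from invasive epithelial cells. It lies on chromosome 11 (GRCh38, chr11:65892049-65900573, minus strand). Its level in normoxia was 6.22, 4.66 and 5.41 CPM in the 3 libraries. It rose to 76.7, 76.7 and 128 CPM at 6 h, stood at 105, 48.8 and 63.7 CPM at 12 h, and at 30.9 and 20.2 CPM at 24 h. Every hypoxic library lay above every normoxic one. The change was 17.3-fold at 6 h, a log2 fold change of 4.11 ± 0.32 (SE; edgeR adjusted p = 1.74e-06). It was 13.3-fold at 12 h (3.74 ± 0.32 on the log2 scale, edgeR adjusted p = 4.38e-06) and 4.71-fold at 24 h (2.23 ± 0.33, edgeR adjusted p = 8.84e-05). This was the largest change among the 10 genes at 6 and 12 h. For 3 libraries against 3, the smallest p that an exact permutation test allows is 0.1, and it was reached here. Part of the FOSL1 mRNA (5.81% of 36-base windows) is shared with the pseudogene FOSL1P1, and no 75-base window is, 75 being the number of sequencing cycles.

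FOSL2 encodes FRA2, the other late Fos protein, which is widely present in resting epithelia. Per kb of exon it was the most abundant Fos family member in every library. Its levels were 348, 273 and 370 CPM in normoxia, 648, 673 and 599 CPM at 6 h, and 443, 855 and 880 CPM at 12 h. At 24 h it was at 329 CPM in replicate 1, among the normoxic libraries, and at 410 CPM in replicate 2, above them. The rise was 1.94-fold at 6 h (log2 0.95 ± 0.24, edgeR adjusted p = 0.0048) and 2.20-fold at 12 h (1.13 ± 0.24, edgeR adjusted p = 0.00184). At 24 h the log2 fold change was 0.16 ± 0.26 and passed no threshold. Library size alone as the scaling turned the 24 h value to -0.79, a call in the lower direction, and took the 6 h call away (edgeR adjusted p = 0.0508, within a range of 1.13e-05 to 0.0508 over all alternatives). At 12 h, replicate 1 stood apart, with the lowest FOSL2 and the highest FOSL1 of its group.

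FOS encodes the founding Fos protein, whose mRNA is the textbook transient response to serum. It was scarce, with 2.80, 2.05 and 2.50 CPM in normoxia and 2.63, 2.34 and 3.71 CPM at 6 h. At 12 h it was 5.89, 4.62 and 2.38 CPM, still overlapping normoxia. At 24 h both libraries were higher, at 23.0 and 6.43 CPM. The 24 h change was 6.01-fold (log2 2.59 ± 0.46, edgeR adjusted p = 0.000385), and its size rests on replicate 1: the log2 fold change was 1.33 without it and 3.20 without replicate 2, called both times. At 12 h FOS was not called (0.80 ± 0.42, edgeR adjusted p = 0.132), and it was called in 4 of 20 alternatives.

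FOSB, the closest relative of FOS, was not called at any time. It was at 3.49, 4.08 and 3.37 CPM in normoxia, 3.21, 3.73 and 4.45 CPM at 6 h, 3.08, 1.57 and 1.85 CPM at 12 h, and 5.95 and 0.926 CPM at 24 h. The 12 h libraries lay below those of normoxia, with a log2 fold change of -0.76 ± 0.45 (edgeR adjusted p = 0.178), and it was called in 5 of 20 alternatives. The 24 h libraries lay on either side of normoxia, 6.42-fold apart, with 139 counts in replicate 1 and 17 in replicate 2. The log2 fold change at 24 h was -0.06 ± 0.51 and was not called. It was -2.03, a call, without replicate 1 and 0.69 without replicate 2.

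JUN encodes the Jun protein most active as a partner of Fos proteins. It was at 21.1, 25.3 and 22.1 CPM in normoxia and 52.4, 56.3 and 76.2 CPM at 6 h. It then held at 55.8, 70.6 and 73.4 CPM at 12 h and 58.4 and 87.5 CPM at 24 h. All hypoxic libraries lay above all normoxic ones, and the 3 hypoxic groups overlapped each other. The change was 2.70-fold at 6 h (log2 1.43 ± 0.19, edgeR adjusted p = 6.97e-05), 2.92-fold at 12 h (1.54 ± 0.19, edgeR adjusted p = 5.59e-05) and 3.19-fold at 24 h (1.67 ± 0.21, edgeR adjusted p = 2.89e-05). JUN and FOSL1 were the 2 genes of the 10 called higher at every time, beside 14.8% of all genes tested.

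JUNB encodes a Jun protein that is a weaker activator and often opposes JUN. Its level was 127, 108 and 122 CPM in normoxia and 79.2, 112 and 88.3 CPM at 6 h. It was 71.2, 62.5 and 56.8 CPM at 12 h, the lowest, and 77.6 and 95.0 CPM at 24 h. The 12 h and 24 h libraries lay below normoxia, and those of 6 h overlapped it. At 6 h the log2 fold change of -0.36 ± 0.16 was not called (edgeR adjusted p = 0.0748), but JUNB was called lower in 7 of 20 alternatives, among them library size alone (-0.68). JUNB was 1.88-fold lower at 12 h (log2 -0.91 ± 0.16, edgeR adjusted p = 0.000563) and 1.38-fold lower at 24 h (-0.47 ± 0.18, edgeR adjusted p = 0.0385). The 24 h call did not survive leaving out normoxia replicate 1 (edgeR adjusted p = 0.103), normoxia replicate 3 (0.0839) or 24 h replicate 1 (0.0988), in a range of 8.29e-05 to 0.199 over all alternatives. The exons of JUNB overlap those of HOOK2 on the opposite strand over 14.2% of their length, and whether the counting used strand was not stated.

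JUND, the Jun protein that is expressed most evenly across tissues, was at 41.4, 40.6 and 41.5 CPM in normoxia and 35.6, 59.6 and 49.0 CPM at 6 h. At 12 h it was 33.6, 30.4 and 32.0 CPM, and at 24 h 16.5 and 52.0 CPM. The 12 h libraries lay below normoxia by a log2 fold change of -0.36 ± 0.31 that was not called (edgeR adjusted p = 0.341). It was called lower in 5 of 20 alternatives, among them library size alone (-0.83) and only the 2 groups compared (-0.36). The 24 h libraries lay on either side of it, 3.15-fold apart, and the log2 fold change of -0.27 ± 0.35 became 0.28 without replicate 1 and, called, -1.34 without replicate 2 and -1.35 by library size alone.

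Within the Fos family, the share of FOSL1 in the summed CPM per kb rose from 5.73% ± 0.54 (SD, n = 3) in normoxia to 34.9% ± 8.06 at 6 h. It was 28.5% ± 15.7 at 12 h and 19.2% ± 5.64 (n = 2) at 24 h. FOSL2 took 91.4% ± 0.85 of the family in normoxia and 64.0% ± 8.20, 70.2% ± 16.3 and 73.4% ± 11.7 at the 3 times, and remained the main Fos mRNA in every library. At 12 h, replicate 1 had a FOSL1 share of 46.5%, and the other libraries of that time had 17.6% and 21.4%. The FOS share was 1.53% ± 0.12 in normoxia, 0.641% ± 0.112 at 6 h and 1.00% ± 0.53 at 12 h, and at 24 h it was 10.2% in replicate 1 and 2.88% in replicate 2. The summed level of the family was 50.5 ± 7.45 CPM per kb in normoxia, 141 ± 11.2 at 6 h, 142 ± 19.4 at 12 h and 70.4 ± 0.34 at 24 h, with every hypoxic library above the normoxic ones. By library size alone the 6 h and 12 h sums stayed above normoxia (148 and 134 against 66.0 CPM per kb), and the 24 h sum of 48.9 ± 15.7 lay below it on average, with 1 library at 60.1, above the lowest normoxic library (55.6), so that the groups overlapped.

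Within the Jun family, the share of JUN rose from 6.83% ± 1.04 (SD, n = 3) in normoxia to 18.6% ± 3.90 at 6 h, 26.5% ± 4.40 at 12 h and 23.7% ± 0.43 (n = 2) at 24 h. The lowest hypoxic library, at 14.5%, was above the highest normoxic one, at 8.01%. JUNB fell from 70.1% ± 2.07 of the family to 54.9% ± 3.38, 49.7% ± 4.29 and 56.8% ± 9.07, and JUND was at 23.0% ± 1.03 in normoxia, 26.6% ± 2.27 at 6 h, 23.8% ± 0.94 at 12 h and 19.5% ± 9.50 at 24 h. The summed level of the Jun family was 92.7 ± 5.03 CPM per kb in normoxia, 92.8 ± 15.7 at 6 h, 69.6 ± 1.92 at 12 h and 85.1 ± 25.4 at 24 h. Its libraries overlapped normoxia at 6 and 24 h and lay below it at 12 h. By library size alone the Jun sum was 121 ± 6.04 CPM per kb in normoxia and lower at every time (97.2 ± 15.7, 65.9 ± 2.75 and 56.3 ± 1.11), whereas the shares do not depend on the scaling. These are shares of mRNA, and no protein was measured.

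**Figure D2:**
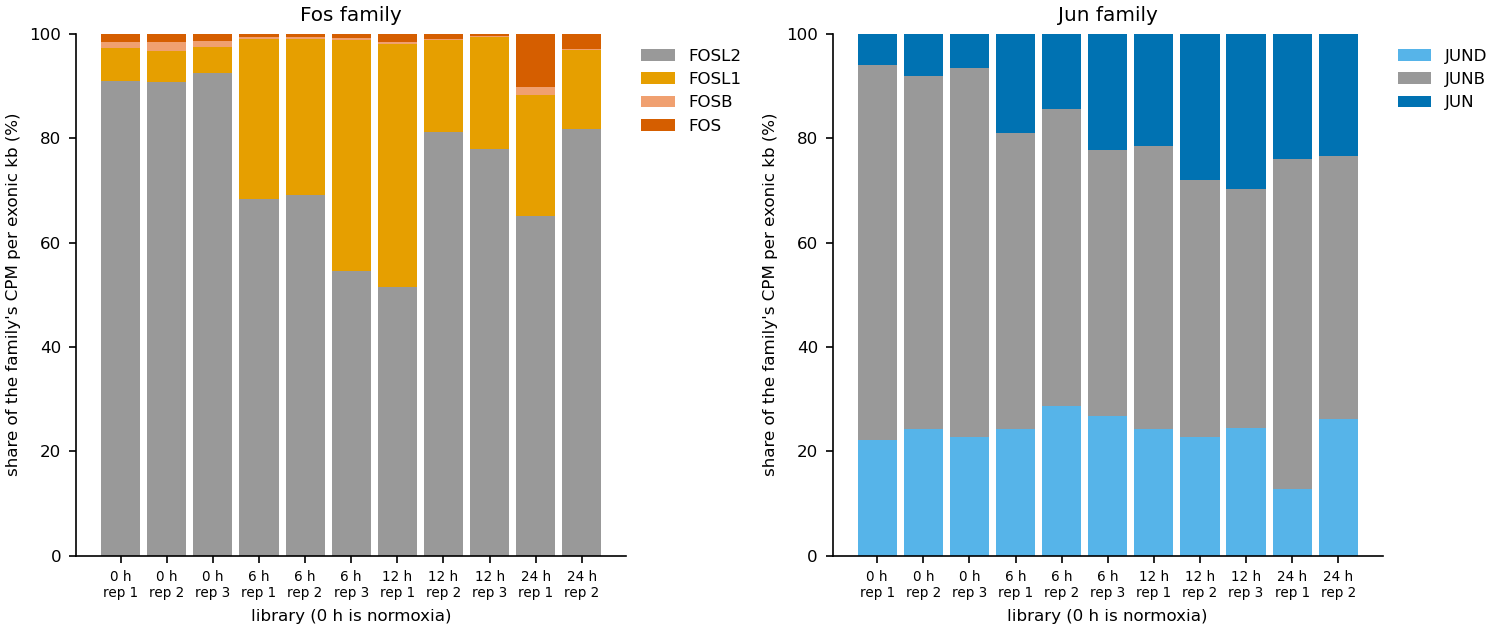
Share of each gene in the summed CPM per exonic kb of its family (%), for each of the 11 libraries, with the Fos family on the left and the Jun family on the right. FOSL1 takes 5.12% to 6.16% of the Fos family in normoxia and 15.2% to 46.5% in hypoxia, and JUN takes 6.02% to 8.01% of the Jun family in normoxia and 14.5% to 29.8% in hypoxia.

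EGR1 encodes a zinc finger factor induced by growth factors through SRF. Its level was 51.8, 47.4 and 44.4 CPM in normoxia and 18.9, 36.2 and 13.5 CPM at 6 h. It was 30.0, 31.3 and 16.9 CPM at 12 h and 12.0 and 8.39 CPM at 24 h. No hypoxic library reached the normoxic range. EGR1 was 2.10-fold lower at 6 h (log2 -1.07 ± 0.32, edgeR adjusted p = 0.0134), 1.84-fold lower at 12 h (-0.88 ± 0.32, edgeR adjusted p = 0.0349) and 4.68-fold lower at 24 h (-2.23 ± 0.39, edgeR adjusted p = 0.000376). The earlier calls were near the threshold. The 24 h call was lost with limma-voom and sample quality weights (log2 -2.21, limma-voom adjusted p = 0.0682). Leaving out 6 h replicate 1 or 3 ended the 6 h call (edgeR adjusted p = 0.0584 and 0.0531, in a range of 6.17e-08 to 0.0584 over all alternatives). Leaving out any 1 normoxic library, or 12 h replicate 1 or 3, ended the 12 h call (edgeR adjusted p from 0.0536 to 0.136, in a range of 1.78e-05 to 0.136), with the log2 fold change between -0.64 and -0.99 in those fits.

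ATF3 encodes a bZIP factor of the stress response that pairs with Jun proteins and represses many targets as a homodimer. It was at 13.5, 17.0 and 14.7 CPM in normoxia. It fell to 3.25, 3.63 and 3.66 CPM at 6 h and 4.70, 3.11 and 3.29 CPM at 12 h, well below the normoxic range and with little spread. The fall was 4.27-fold at 6 h (log2 -2.10 ± 0.31, edgeR adjusted p = 0.00012) and 4.08-fold at 12 h (-2.03 ± 0.30, edgeR adjusted p = 0.000197). At 24 h the 2 libraries were at 16.7 and 5.99 CPM, replicate 1 within and replicate 2 below the normoxic range, and the log2 fold change of -0.40 ± 0.33 was not called (edgeR adjusted p = 0.31). It was -1.38 without replicate 1 and -1.18 by library size alone, both called, and 0.13 without replicate 2.

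IER2 encodes a small nuclear protein of the immediate early class. It was at 31.3, 28.3 and 30.9 CPM in normoxia, 16.6, 21.8 and 19.7 CPM at 6 h, 23.4, 14.0 and 12.5 CPM at 12 h, and 19.9 and 14.9 CPM at 24 h. All hypoxic libraries lay below normoxia. IER2 was 1.56-fold lower at 6 h (log2 -0.64 ± 0.22, edgeR adjusted p = 0.0253), 1.82-fold lower at 12 h (-0.86 ± 0.22, edgeR adjusted p = 0.00574) and 1.73-fold lower at 24 h (-0.79 ± 0.25, edgeR adjusted p = 0.015). The 6 h call was lost without normoxia replicate 1 or 3 or 6 h replicate 1 or 3 (edgeR adjusted p from 0.0565 to 0.0944, in a range of 0.000728 to 0.0944 over all alternatives), and the 24 h call without 24 h replicate 2 (0.0805, in a range of 0.000266 to 0.14). Annotated exons of 2 lncRNAs on the other strand cover 52.2% of the exons of IER2, and reads of the 3 genes cannot be told apart there unless the counting used strand. IER2 and EGR1 were the 2 genes of the 10 called lower at every time, beside 17.9% of all genes tested.

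**Figure D3:**
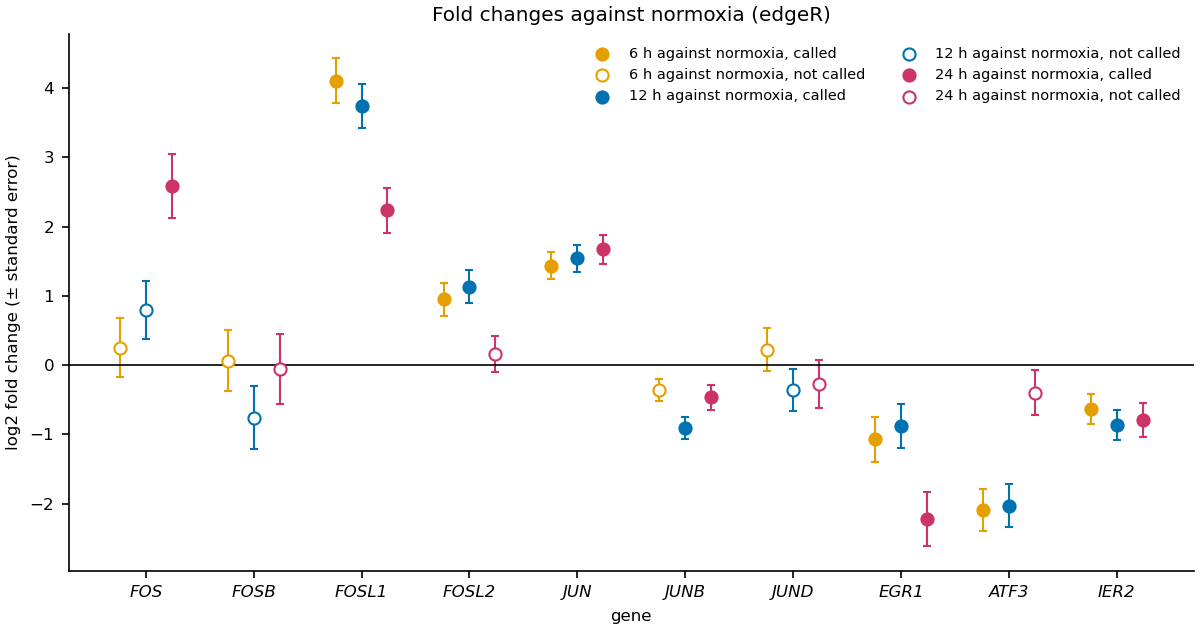
Log2 fold change of each gene against normoxia at 6, 12 and 24 h with its standard error, from edgeR; filled points were called at an adjusted p under 0.05. FOSL1 leads at 6 h (4.11) and 12 h (3.74), FOS at 24 h (2.59), and EGR1 (-2.23 at 24 h) and ATF3 (-2.10 at 6 h) are the lowest.

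Between 6 and 12 h none of the 10 genes was called by edgeR, beside 4.95% of all genes tested (1.88% higher and 3.07% lower), and the libraries did not overlap for 3 (FOSB, JUNB and JUND), beside 31.6%. At an unadjusted p under 0.05 there was 1, JUNB (log2 fold change -0.55 ± 0.16, edgeR adjusted p = 0.066), which was chosen after its value was seen. Of the 10, DESeq2 called 1 gene and limma-voom 0, and the shares of all genes called by these tools are not given here. Between 12 and 24 h, 5 were called, beside 28.4% of all genes tested: FOS and ATF3 were higher at 24 h, and FOSL1, FOSL2 and EGR1 were lower (15.1% and 13.3% of all genes tested). The libraries of 6 genes did not overlap, these and JUNB, beside 49.2%. ATF3 rose 3.10-fold (log2 1.63 ± 0.33, edgeR adjusted p = 0.00482), and 0.68 remained of this log2 difference without 24 h replicate 1. FOS rose 3.46-fold (1.79 ± 0.45, edgeR adjusted p = 0.0123), and the call was lost without 24 h replicate 1 (0.57, edgeR adjusted p = 0.271, in a range of 3.64e-09 to 0.271 over all alternatives). FOSL1 fell 2.83-fold (-1.50 ± 0.34, edgeR adjusted p = 0.00725), and the call was lost with sample quality weights (-1.28, limma-voom adjusted p = 0.176). With only the 2 groups compared, 0 of the 10 genes were called. How many of all genes tested were called in that fit is not given here. Among those lost there were ATF3 (1.605, edgeR adjusted p = 0.0761) and FOSL1 (-1.53, edgeR adjusted p = 0.0727). FOSL2 fell 1.96-fold (-0.97 ± 0.27, edgeR adjusted p = 0.0193), and the call was lost without 12 h replicate 2 or 3 (log2 -0.85 and -0.81). EGR1 fell 2.54-fold (-1.35 ± 0.38, edgeR adjusted p = 0.0206), and the call was lost without 12 h replicate 1 or 2 or 24 h replicate 2 (log2 -1.23, -1.20 and -1.13).

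The 2 libraries at 24 h differed for several of these genes. FOS, FOSB, JUND and ATF3 differed between them by more than 2-fold, 4 of the 10 genes beside 32.5% of all genes tested. In the other groups the highest and lowest libraries lay more than 2-fold apart for 0 genes of the 10 in normoxia, 1 at 6 h (EGR1) and 2 at 12 h (FOS and FOSL1), beside 6.77%, 17.9% and 14.2% of all genes. Replicate 1 was the higher for FOS, FOSB and ATF3, and replicate 2 for JUND. With the 24 h libraries taken singly, FOSB (log2 -2.03) and ATF3 (-1.38) were called lower without replicate 1, and JUND (-1.34) without replicate 2. The direction of FOSL1, FOS, JUN, JUNB, EGR1 and IER2 at 24 h was the same with either library left out.

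**Figure D4:**
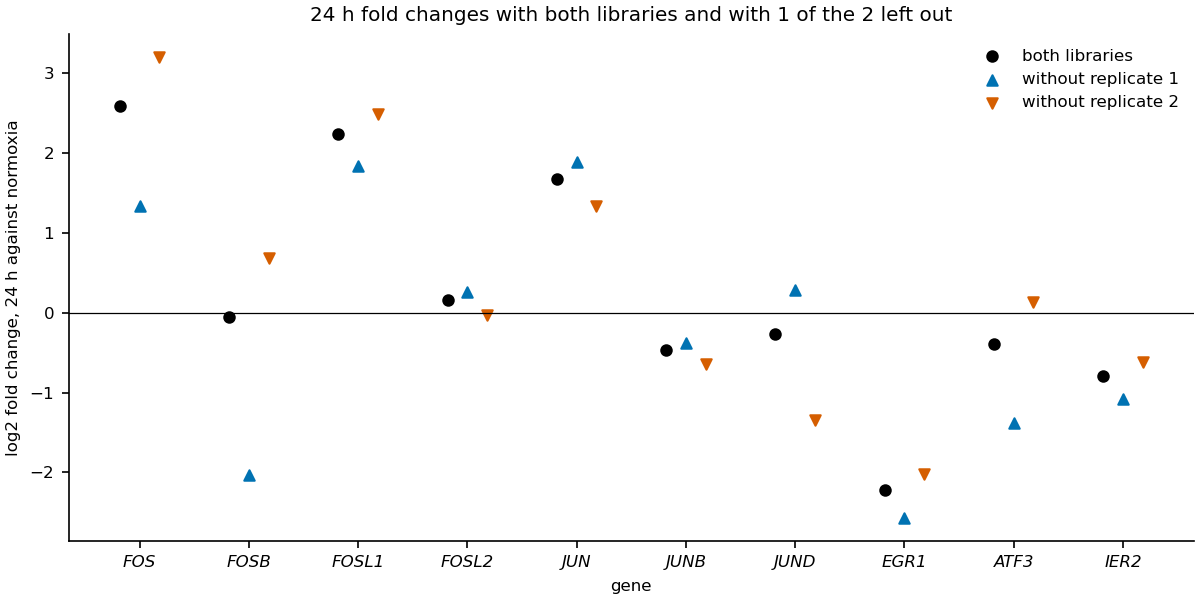
Log2 fold change at 24 h against normoxia for each gene, with both 24 h libraries (circles) and with either of them left out (triangles). FOSB moves from -2.03 to 0.69, JUND from 0.28 to -1.34 and ATF3 from -1.38 to 0.13, while JUN stays between 1.34 and 1.88.

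The genes that act around these factors were taken from 6 lists of known partners, regulators and targets. Their medians are read beside that of every gene tested, a log2 fold change of -0.0021 at 6 h, -0.033 at 12 h and -0.065 at 24 h, and their counts beside the shares of all tested genes called higher (25.1%, 24.2% and 29.9%) and lower (27.7%, 27.1% and 31.3%) at those times. For counts by library size alone, only the split between higher and lower is read beside all genes. Of the genes called with that scaling, 27.56% were higher at 6 h, 20.04% at 12 h and 16.43% at 24 h. These are shares of the called genes (9843, 10560 and 13527 at those times) and not of all genes tested.

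Other immediate early genes, whose products range from nuclear receptors to growth brakes, were mostly called higher on the TMM scaling. Of 24 tested, 16 were higher and 2 lower at 6 h (median log2 fold change 1.17), 13 and 2 at 12 h (0.84) and 13 and 3 at 24 h (0.68). Scaled by library size alone, the counts were 11 higher and 2 lower, 8 and 3, and 5 and 5. NR4A3, an orphan nuclear receptor, rose by 3.68 ± 0.64 (SE) on the log2 scale at 6 h from a level of 0.0924 CPM or less in normoxia, and its 24 h value of 2.90 fell to 1.22, no longer called, without 24 h replicate 1. GADD45B, a stress sensor that feeds into MAP kinases, rose by 1.81 ± 0.22 at 6 h, 2.44 ± 0.22 at 12 h and 3.19 ± 0.24 at 24 h. NFKBIZ, an inhibitor-like cofactor of NF-kappaB, went the other way and fell by 2.18 ± 0.31, 2.79 ± 0.33 and 2.84 ± 0.40 on the log2 scale, the last of these becoming -4.00 without 24 h replicate 1. BTG2, a brake on the cell cycle, was called higher at 6 h (0.71 ± 0.21) and lower at 24 h (-0.92 ± 0.25), and MCL1, a survival factor of the BCL2 family, went from 1.51 ± 0.13 at 6 h to -0.41 ± 0.15 at 24 h. The BTG2 call at 6 h was lost without normoxia replicate 3 (0.66) or 6 h replicate 2 (0.53) and by library size alone (0.39), and the MCL1 call at 24 h without any 1 of the normoxic libraries (-0.38, -0.43 and -0.43). That scaling also ended the calls of NR4A3 at 24 h (2.07) and of MCL1 at 12 h (0.43 ± 0.13 with TMM and -0.040 without).

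Of 7 tested bZIP genes whose proteins can pair with Fos or Jun, 4 were higher and 1 lower at 6 h (median 0.68), 4 and 1 at 12 h (0.44), and 3 and 2 at 24 h (-0.041). With library size alone as the scaling these counts were 3 and 2, 1 and 1, and 1 and 4. BATF3, a partner of Jun proteins, rose by 1.69 ± 0.41 (SE), 1.86 ± 0.41 and 3.20 ± 0.42 on the log2 scale at the 3 times, with 0.168 CPM or less in normoxia. MAFF, a small Maf protein without an activation domain, rose by 1.45 ± 0.25, 1.05 ± 0.25 and 0.81 ± 0.27. The last MAFF value rests on few libraries: the call was lost without normoxia replicate 1 (0.79), normoxia replicate 2 (0.78) or 24 h replicate 1 (0.57), and by library size alone MAFF was at -0.070. That scaling also ended its 12 h call (0.57). JDP2, a repressor that pairs with JUN, fell by 0.43 ± 0.15, 0.82 ± 0.15 and 0.61 ± 0.17 on the log2 scale, and its 6 h call was lost without normoxia replicate 2 (-0.43) or 3 (-0.41) or 6 h replicate 1 (-0.43) or 3 (-0.31).

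The regulators of EGR1 and of its SRF-driven class went several ways. NAB2, a corepressor that EGR1 itself induces, rose while EGR1 fell, by 0.85 ± 0.12 (SE) at 6 h, 0.99 ± 0.12 at 12 h and 1.31 ± 0.13 at 24 h on the log2 scale, and by library size alone its 24 h value of 0.37 was not called. With its relative NAB1, 2 of the 2 corepressors were higher at 6 h and 1 at 12 and 24 h (medians 0.64, 0.40 and 0.56), with 0 lower. With library size alone, 1 was higher and 0 lower at 6 h, 1 and 1 at 12 h, and 0 and 1 at 24 h (median -0.38). Of SRF and its 5 cofactors, 4 were higher and 1 lower at 6 h (median 0.82), 3 and 2 at 12 h (0.23), and 1 and 3 at 24 h (-0.40). SRF itself rose by 0.88 ± 0.13 at 6 h and fell by 0.64 ± 0.15 at 24 h. ELK3 and ELK4, which dock on SRF and carry growth factor signals, moved in opposite directions at every time on the TMM scaling, and at 24 h both were below 0 by library size alone. ELK3 rose by 1.79 ± 0.13, 1.20 ± 0.13 and 0.77 ± 0.14, and ELK4 fell by 0.79 ± 0.13, 1.05 ± 0.13 and 2.09 ± 0.15 on the log2 scale. By library size alone ELK3 stood at -0.15 at 24 h, not called, and the counts for this list were 3 higher and 2 lower, 1 and 3, and 0 and 5.

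Of 15 MAP kinases and MAP kinase kinases, 6 were higher and 3 lower at 6 h (median 0.19), 6 and 5 at 12 h (0.33), and 5 and 3 at 24 h (-0.24). Without TMM, by library size alone, the counts were 3 and 6, 3 and 6, and 2 and 10. MAP2K3, which activates p38 kinases, rose by 2.43 ± 0.15 (SE), 1.99 ± 0.15 and 1.52 ± 0.16 on the log2 scale. MAP2K1, which encodes the kinase MEK1, rose by 1.89 ± 0.12, 1.79 ± 0.12 and 1.82 ± 0.13. MAPK13, the p38 kinase of epithelia, fell by 1.05 ± 0.13, 1.08 ± 0.13 and 1.11 ± 0.15.

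Among 19 tested genes often cited as AP-1 targets, 10 were higher and 2 lower at 6 h (median 0.65), 12 and 2 at 12 h (0.99), and 12 and 3 at 24 h (1.06). The counts by library size alone were 7 and 2, 7 and 2, and 6 and 4. The stromelysins MMP3 and MMP10, secreted matrix proteases, rose by 3.25 ± 0.52 (SE) and 2.56 ± 0.42 on the log2 scale at 6 h from 0.289 CPM or less in normoxia. Both were also called at 12 h (1.88 and 2.46) and 24 h (2.61 and 2.18), although the MMP3 call at 12 h was lost without normoxia replicate 2 (1.62) or 12 h replicate 2 (1.51) and by library size alone (1.43). PLAU, the urokinase plasminogen activator, went the other way and fell by 2.79 ± 0.15, 2.02 ± 0.15 and 2.21 ± 0.18, from 153 to 160 CPM in normoxia to 19.2 to 41.7 CPM in hypoxia. ITGA2, a collagen receptor subunit, was at 0.54 ± 0.15 at 6 h and -0.51 ± 0.17 at 24 h. Its 6 h call was lost without normoxia replicate 3 (0.48) or 6 h replicate 1 (0.40) and by library size alone (0.22), and its 24 h call without normoxia replicate 1 (-0.50) or 2 (-0.48) or 24 h replicate 2 (-0.35).

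**Figure D5:**
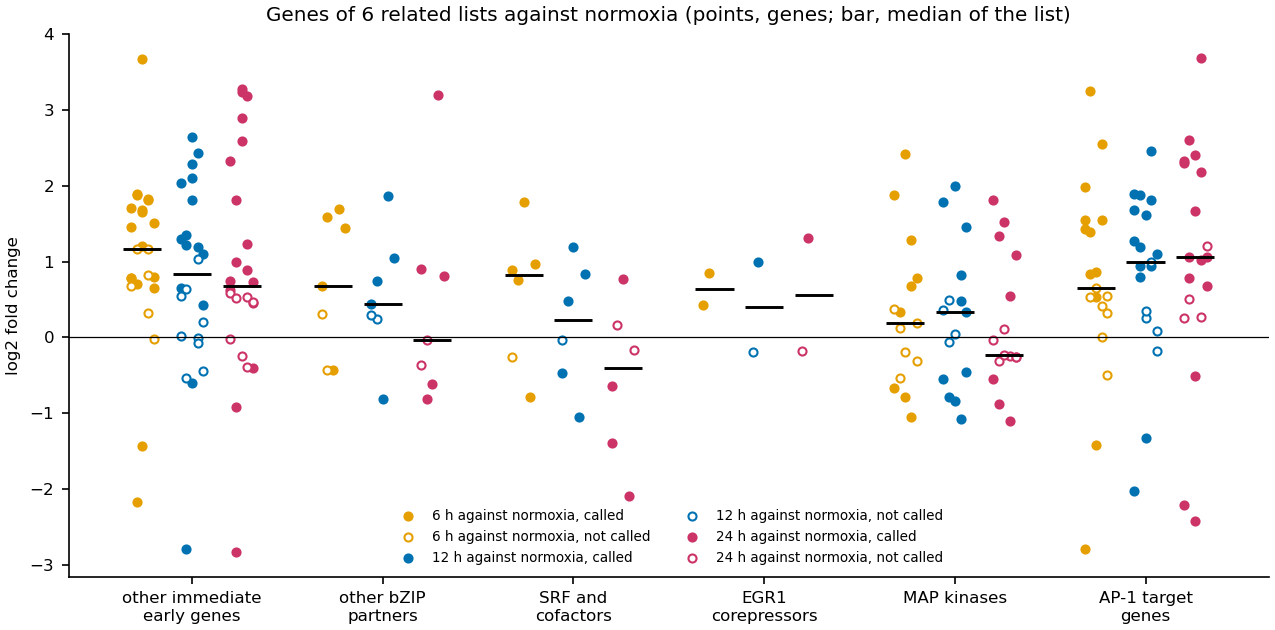
Log2 fold change against normoxia of every tested gene of the 6 related lists at 6, 12 and 24 h, from edgeR; filled points were called at an adjusted p under 0.05 and bars are list medians. The median of the other immediate early genes goes from 1.17 to 0.68 and that of the AP-1 targets from 0.65 to 1.06, while SRF and its cofactors go from 0.82 to -0.40; by library size alone the 24 h medians are -0.23, 0.22 and -1.32.

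Genes whose level followed each of the 10 most closely were ranked by Pearson's r of log2 CPM over the 11 libraries, among 9018 genes with a symbol and a mean of at least 10 CPM. The libraries share the 4 groups, so these are descriptions of a common time course. FOSL1 was followed by HSPA1A (r = 0.992) and HSPA1B (0.991), inducible heat shock genes that are near-identical copies whose counts are uncertain between them, and by THBS1 (0.987), a matrix glycoprotein. JUN was followed by LINC02802 (0.976), DUSP1 (0.974), a phosphatase of MAP kinases and itself an immediate early gene, and AK1 (0.973). ATF3 was followed by ATOSA (0.972), TCAIM (0.966) and TFDP2 (0.941), and FOS by RTTN (0.963), TRAK2 (0.932) and ME1 (0.930). EGR1 was followed by TAF1C (0.931), GRHL2 (0.930), an epithelial transcription factor, and PLEKHG5 (0.925), and IER2 by ZCCHC8 (0.930), FBXO9 (0.915) and PRKRA (0.907). For FOSL2 the closest were NLRP2 (0.927), NR2F2 (0.926) and ANKRD13B (0.925), and for JUNB SULT1A1 (0.910), PDGFC (0.907) and NBPF26 (0.905). JUND was nearest to IRAK1 (0.916), CADM4 (0.893) and MDM2 (0.880), and FOSB to PLK2 (0.886), CLINT1 (0.878) and SMAD2 (0.864).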

How the data were processed

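The starting point was the table of raw read counts per Ensembl gene that the authors deposited, made from stranded, single-end libraries of 75 cycles. Per the labels, the submitters' processing notes name FastQC, Trimmomatic, STAR, featureCounts and DESeq2, on hg38. The strand setting, the handling of multimapping reads and the depth before counting were not given in the sources used here. The labels say that 12 libraries were built in 1 batch, and a further 24 h library was not analysed here. All 11 columns were matched to samples by time point and replicate, and 0 were left over.

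Counts were analysed in R 4.3.3 with edgeR 4.0.16. filterByExpr (minimum count 10, minimum total 15, by time point) kept 19981 of 60676 genes, TMM factors scaled the libraries, and glmQLFit and glmQLFTest were run on all 11 libraries with time point as the only factor, so the groups share 1 estimate of the spread. p-values were adjusted by Benjamini and Hochberg, and an adjusted p under 0.05 was called. The fit was also run on simulated counts with known changes, drawn with the same spread in all groups, and the outcome is not reported here. The biological coefficient of variation was 19.6%, and genes with few counts are measured less precisely. Levels are TMM-scaled CPM, without a prior count, and CPM per kb of merged exons from GENCODE on GRCh38, in which 60357 gene IDs were found. For likeness, log2 CPM had a prior count of 2. Promoters are RefSeq sequences of GRCh38.p14. Alternatives were median-of-ratios scaling, library size alone, no filter, at least 10 counts in every library, DESeq2 1.42.0, limma 3.58.1 with voom and with sample quality weights, only the groups compared, a replicate block, and each library left out. For the family shares, they were the longest transcript as length and no length correction.

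The 10 genes and the gene lists were chosen with earlier results of these data known. Beside the 10 genes, those named from each list are up to 3 called the same way at all 3 times with the largest mean change, and any called both ways. Of these, 1 gene is not reported here. Likeness names the 3 genes with the highest r. Same-numbered libraries were not shown to be paired. Figures were drawn with matplotlib 3.10.9.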

Additional observations from a re-analysis of the deposited data

Results flagged for a closer look

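The comparison of 24 h with 12 h tests directly whether the change from normoxia differed between these times, and 5 of the 10 genes differed by edgeR, beside 28.4% of all genes tested. With only the 2 groups compared 0 of the 10 differed, and with limma-voom and sample quality weights 1 did. The 28.4% belongs to the fit of all 11 libraries, and the shares of all genes in those other settings are not given here. On the log2 scale, FOS was 1.79 higher at 24 h and ATF3 was 1.63 higher, while FOSL1 was lower by a log2 fold change of -1.50, FOSL2 by -0.97 and EGR1 by -1.35. The calls of FOS, FOSL2 and EGR1 were each lost on leaving out 1 of some libraries (24 h replicate 1 for FOS, where 0.57 remained, 12 h replicate 2 or 3 for FOSL2, and 12 h replicate 1 or 2 or 24 h replicate 2 for EGR1). FOS and ATF3 also differed 3.57-fold and 2.79-fold between the 2 libraries at 24 h. The part of this spread in the differences was not tested beyond leaving out each library.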

How the results depend on the processing

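Over 20 alternatives each, FOSL1 and JUN at all 3 times, ATF3, JUNB, IER2 and FOSL2 at 12 h, ATF3 at 6 h and FOS at 24 h kept their direction and their call. Of 1000 recomputed log2 fold changes of the 10 genes, 885 kept direction and side of the threshold, 36 lost their call, 46 gained one and 33 changed sign, 0 of these from a called value and 3 to a called one. EGR1 at 24 h lost its call with limma-voom and sample quality weights (adjusted p = 0.0682, in a range of 8.84e-22 to 0.0682). The cause of these changes was not tested.

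Counts of called genes moved in a few settings. Except for library size alone, how many of all genes tested each setting called is not given here. The counts therefore cannot be read as particular to the 10 genes. With limma-voom and sample quality weights, 3 of the 10 genes were called at 24 h, 3 higher and 0 lower. The lower calls of EGR1, IER2 and JUNB at 24 h were thus lost in that setting. It called 26 genes of the related lists at 24 h, 4 of the 10 genes between 6 and 12 h and 1 between 12 and 24 h. Between 6 and 12 h the count was 1 by library size alone, which called 690 of all genes tested. It was 2 with no filter on low counts and 1 with at least 10 counts in every library. DESeq2 gave 1, and only the 2 groups compared gave 1, a setting that gave 0 between 12 and 24 h. With 1 library left out, between 4 and 7 of the 10 genes were called at 6 h, between 6 and 10 at 12 h and between 5 and 7 at 24 h, between 0 and 3 from 6 to 12 h (3 with either 24 h library left out), and 3 to 7 between 12 and 24 h (3 without 12 h replicate 2). The 10 at 12 h came when either 24 h library was left out, and then FOS, FOSB and JUND were called as well.

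By library size alone the log2 fold change was -0.066 for FOS, -0.25 for FOSB and -0.098 for JUND at 6 h, -0.79 for FOSL2 at 24 h, -0.037 for JUN and -0.086 for ATF3 between 6 and 12 h, and -0.38 for JUN, -0.033 for JUNB, -0.52 for JUND and -0.33 for IER2 between 12 and 24 h. With at least 10 counts in every library FOSB was at -0.019 at 6 h. With sample quality weights EGR1 (-0.24) and ATF3 (-0.088) turned between 6 and 12 h, and JUN (-0.0016) and JUND (-0.18) between 12 and 24 h. JUND in that comparison was also at -0.15 by limma-voom and -0.0073 with no filter, where IER2 was at -0.015.

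With 1 library left out, the sign of these values changed: FOSB ranged from -0.065 to 0.17 at 6 h and from -2.03 to 0.69 at 24 h, FOSL2 from -0.026 to 0.26, JUND from -1.34 to 0.28 and ATF3 from -1.38 to 0.13 at 24 h. Between 6 and 12 h EGR1 ranged from -0.081 to 0.69 and ATF3 from -0.14 to 0.17. Between 12 and 24 h FOSB ranged from -1.24 to 1.46, JUN from -0.20 to 0.36, JUND from -0.97 to 0.67 and IER2 from -0.18 to 0.39.

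With no length correction, FOSL1 took 1.59% of the Fos family in normoxia and 12.7%, 10.3% and 6.28% at the 3 times, and JUN took 12.5% of the Jun family and then 30.6%, 41.1% and 37.8%. With the longest transcript as length, JUN was at 25.7% at 24 h.

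Replicate numbers were not shown to pair the libraries: over 15 same-numbered pairs the correlation of deviations from the group means was -0.16 to 0.21. Deviations from the mean of so few libraries depend on each other, so these values cannot exclude pairing. With the replicate block 6, 7 and 6 of the 10 genes were called against normoxia, 0 between 6 and 12 h and 5 between 12 and 24 h, no gene gained or lost a call, and JUND between 12 and 24 h was at -0.038. Depth limits FOSB most, with 17 counts in 24 h replicate 2.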
